A study of Mus musculus with 9 samples.

Results

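Genes that the gut epithelium induces for defence against microbes were followed in intestinal epithelial cells (IECs) after activation of natural killer T (NKT) cells in vivo. The 10 genes were chosen by name for their known roles: Nos2, Reg3a, Reg3b, Reg3g, Lcn2, Duox2, Duoxa2, Retnlb, Saa1 and Nox1. Of these, 9 were measured and passed the filter on low counts, among 29288 genes in the count table and 18933 genes tested, and Saa1 was not analysed here. IECs were sorted by FACS from crypts of the proximal small intestine as live EpCAM+ cells negative for CD45, CD31 and Ter119, from female, young adult wild-type C57BL/6J mice, and total RNA depleted of ribosomal RNA was sequenced. Of 9 libraries, 3 came from mice given PBS and sampled at 18 h (control), 3 from mice given 2 µg of αGalCer and sampled at 18 h (18h-αGal), and 3 from mice given the same dose and sampled at 72 h (72h-αGal). αGalCer is a glycolipid that CD1d presents to NKT cells and that activates them. The study's methods name as many mice as libraries in each group, so p-values measure the spread between the libraries of different mice. All controls are labelled 18 h, so treatment and time of sampling cannot be told apart in the 72 h group. The EpCAM+ gate holds every epithelial cell type of the crypt preparation, and a lower level may mean fewer cells of a type or less RNA per cell, which bulk RNA cannot tell apart.

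The inducible antimicrobial programme of the gut works at the surface of the epithelium. Enterocytes and Paneth cells secrete C-type lectins of the Reg3 family, which bind bacterial cell walls, and goblet cells secrete the resistin-like protein encoded by Retnlb. Lcn2 binds bacterial siderophores and so withholds iron, Duox2 with its maturation factor Duoxa2 and Nox1 make hydrogen peroxide or superoxide at the cell surface, and Nos2 makes nitric oxide from arginine. The programme is known to respond to microbial contact and to cytokines such as interleukin-22 and interleukin-17.

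The 3 Reg3 genes among the members lie in a single cluster on mouse chromosome 6 (build GRCm39, GENCODE vM39), at chr6:78347640-78350455 on the plus strand for Reg3b, chr6:78357692-78360810 on the plus strand for Reg3a and chr6:78443246-78445859 on the minus strand for Reg3g. Their exons shared none of their 50-base words with another annotated gene, so no stretch of that length is shared with a paralogue. A relative, Reg3d, lies between Reg3b and Reg3a at chr6:78352857-78355848 on the minus strand. The sequences before the RefSeq starts of these 3 genes and of Nox1 are shown because Reg3a and Nox1 were called lower at 18 h, Reg3b came close to the threshold, and Reg3g lies in the same cluster. Each runs 5′ to 3′ on the strand of its gene, from 250 to 51 bases before the start. They come from RefSeq, build GRCm38.p6. Capitals mark letters found by a search of both strands for TTCNNNGAA (a STAT site), TTCNNNNGAA (a STAT6 site), GAAANNGAAA (an ISRE), TATAAA and the NF-κB consensus.
Reg3a, chr6:78380459-78380658, plus strand: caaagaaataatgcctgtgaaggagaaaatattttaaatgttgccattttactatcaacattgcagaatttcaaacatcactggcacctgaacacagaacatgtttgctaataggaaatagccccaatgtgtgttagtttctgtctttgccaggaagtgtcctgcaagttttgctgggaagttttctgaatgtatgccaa
Reg3b, chr6:78370635-78370834, plus strand: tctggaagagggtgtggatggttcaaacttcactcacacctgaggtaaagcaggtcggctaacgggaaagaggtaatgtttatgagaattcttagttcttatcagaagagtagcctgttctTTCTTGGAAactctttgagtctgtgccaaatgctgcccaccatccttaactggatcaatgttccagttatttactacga
Reg3g, chr6:78468925-78469124, minus strand: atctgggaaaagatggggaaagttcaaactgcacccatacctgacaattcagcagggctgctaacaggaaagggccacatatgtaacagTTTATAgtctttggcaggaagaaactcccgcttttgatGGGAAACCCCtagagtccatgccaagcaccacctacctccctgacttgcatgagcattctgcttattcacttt
Nox1, chrX:134111905-134112104, minus strand: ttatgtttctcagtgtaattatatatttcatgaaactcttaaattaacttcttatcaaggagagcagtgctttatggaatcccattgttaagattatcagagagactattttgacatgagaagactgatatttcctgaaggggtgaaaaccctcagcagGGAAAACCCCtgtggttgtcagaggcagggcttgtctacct

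In windows of 250 bases before the start, Reg3b held a STAT match at -129 to -121 and a TATAAA at -29. Reg3g held an NF-κB match at -123 to -114, a TATAAA at -27 and a TATAAA on the other strand at -161. Nox1 held an NF-κB match at -91 to -82, and Reg3a held none of the motifs searched. A STAT match of this form occurred in 7.02% of all 32851 windows, an NF-κB match in 3.9%, a STAT6 match in 5.85%, an ISRE in 2.98% and TATAAA in 12.4%. These are matches of letters and describe no binding. Among windows of measured members, 50 of the 250 bases of Reg3b, 139 of Lcn2 and 222 of Duox2 also occur in annotated transcripts of the same gene. The bases directly after the RefSeq start of Reg3g were not found in its annotated transcripts. The Reg3b and Reg3g windows shared 173 identical bases in alignment (69.2% of the window), Reg3a and Reg3g shared 55.6%, and Reg3a and Reg3b shared 44.8%. Pairs of windows in which at most 1 gene belonged to the Reg3 family shared between 38.4% and 48.8%, a range that includes the value for Reg3a and Reg3b.

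The libraries differed in depth, and 1 control stood apart. Total counts ranged from 8887861 in control replicate 3 to 32722293 in control replicate 1. Counts divided by a size factor for each library are given as normalised counts, and a floor of 3 counts corresponded to between 1.76 and 7.13 normalised counts in a library. Epcam was between 16279 and 22719 normalised counts in all libraries, and the summed epithelial markers lay between 77673 and 111769. Of 14 myeloid markers 10 had values, and 6 passed the filter on low counts (Ptprc, Cd68, Lyz2, Itgam, Csf1r and Cd14). Adgre1 was at 0 in all controls, and Tyrobp was at 0 in all αGalCer libraries. The 10 myeloid markers with values summed to 599 to 646 in controls, 570 to 864 at 18 h and 813 to 1021 at 72 h. The 12 lymphocyte markers with values summed to 71.2 to 92.7, 41.4 to 93.3 and 44.2 to 221 in the same groups. The 8 endothelial, stromal and erythroid markers with values summed to 364 to 521, 596 to 687 and 175 to 181. Of each of these 2 lists, 3 markers passed the filter. In control replicate 3, 8 of the 9 measured members were at their highest level among the 3 controls, against 36.8% of all tested genes. All 11 enterocyte markers were also higher in that library than in either other control, with a sum 2.09 times the mean of the others, whereas 10 of 11 Paneth cell markers and all 6 stem cell markers were lower, with sums of 0.329 and 0.564 times that mean. What part these markers had in the members' values was not tested. Results are therefore given with and without control replicate 3 where it moved them.

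**Figure D1:**
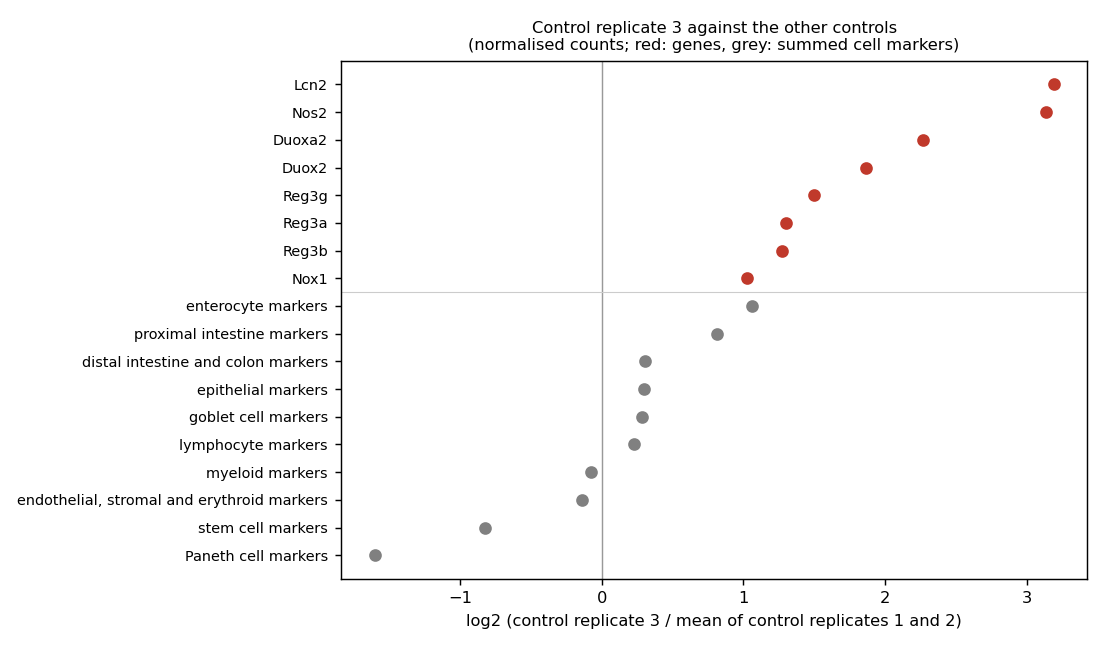
Log2 ratio of the normalised count in control replicate 3 to the mean of control replicates 1 and 2, for members (red) and for summed marker lists (grey). Nos2 and Lcn2 lie farthest to the right, at 8.81 and 9.12 times the other controls, and Paneth cell markers farthest to the left. Retnlb, at 0 in control replicate 3, is not drawn.

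At 18 h after αGalCer, Reg3a and Nox1 fell and no member rose at the threshold used. With edgeR's quasi-likelihood test and Benjamini-Hochberg adjustment over all genes, 2 of 9 members were called at an adjusted p under 0.05, against 5.96% of all tested genes. Both called members were lower, and 2.69% of tested genes were called lower. Of the 9 members, 8 had a lower fitted mean than control, with a median log2 fold change of -1.07 against -0.03 over all tested genes. With control replicate 3 left out, 5 were lower and 4 higher, with a median of -0.40 against -0.04, as Lcn2, Duox2 and Duoxa2 turned. The 3 libraries of each group did not overlap for 5 members, of which 4 were lower and 1 was higher, compared with 23.8% of tested genes in either direction, 12.3% lower and 11.5% higher. At 72 h, 0 members were called against control with edgeR, and 0.0264% of all tested genes were. An unadjusted p under 0.05 was found for 2 members (Reg3a and Reg3b) and for 5.94% of tested genes, and the libraries did not overlap for 1 member (Reg3a) and for 12.7% of tested genes. Between 72 h and 18 h, Nox1 was higher and Retnlb was lower at 72 h, so that 2 of 9 members were called against 10.2% of tested genes (4.18% higher and 6.04% lower). The libraries of 72 h and 18 h did not overlap for 6 members, against 32.8% of tested genes. DESeq2 called 3 members at 18 h (8.3% of genes), 0 at 72 h (0.158%) and 3 between 72 h and 18 h (15.4%). Without control replicate 3, edgeR called 2 members at 18 h (7.66% of genes), 0 at 72 h (0.0984%) and 4 between 72 h and 18 h (12.8%).

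**Figure D2:**
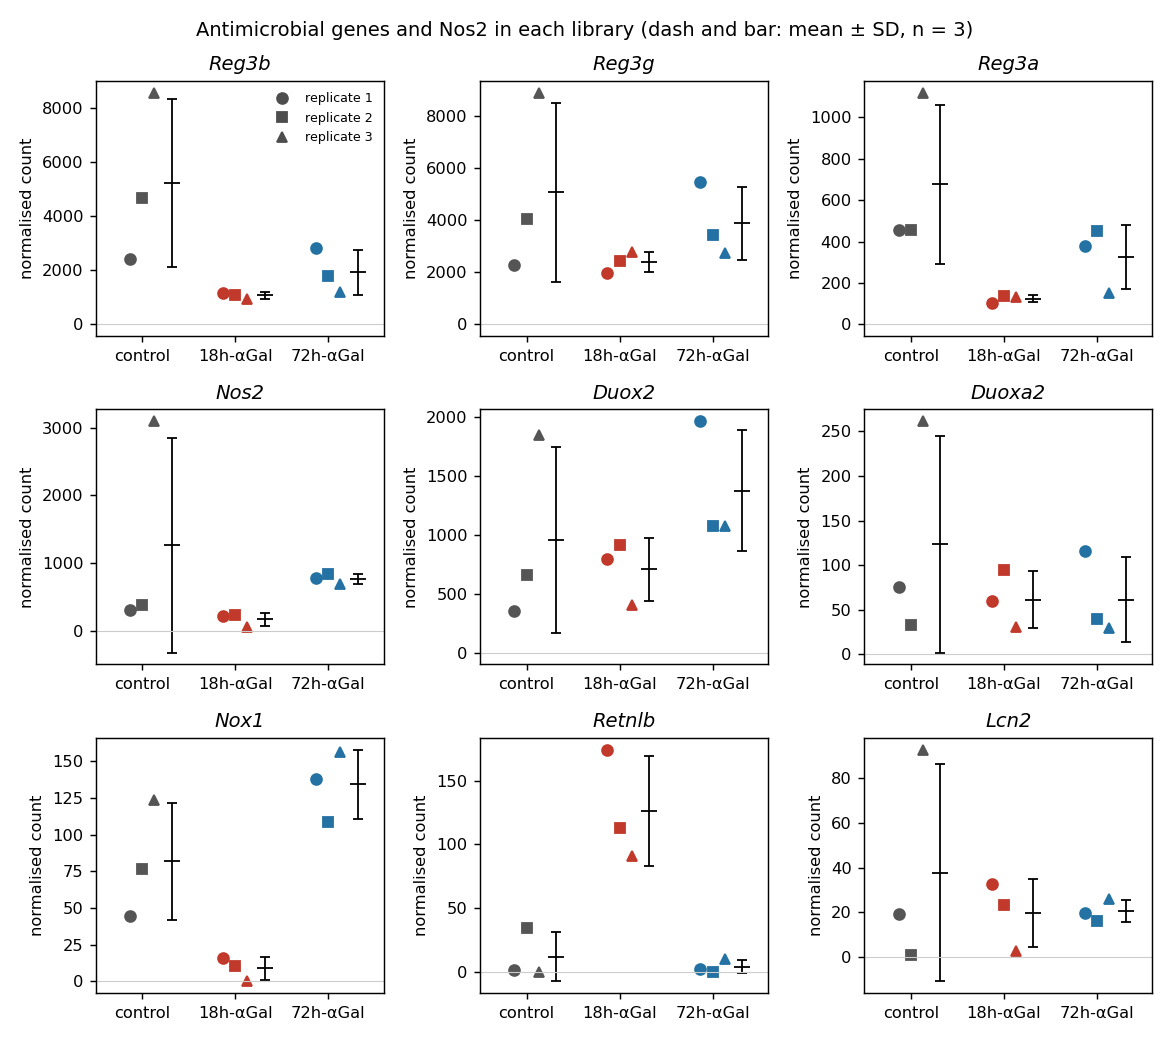
Normalised counts of the 9 measured members in each library, with control in grey, 18h-αGal in red and 72h-αGal in blue. Circles, squares and triangles are replicates 1, 2 and 3, and the dash and bar give the mean ± SD of 3 libraries. For Reg3a, Reg3b, Nos2 and Nox1 all 18h-αGal points lie below all control points, and for Retnlb they lie above them.

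The Reg3 genes encode the secreted lectins of the set. Reg3a was at 454, 456 and 1120 normalised counts in control replicates 1 to 3, at 103, 136 and 134 at 18 h, and at 376, 450 and 152 at 72 h. All 18h-αGal libraries were below every control and every 72h-αGal library, and all 72h-αGal libraries were below every control. Reg3a was 5.36-fold lower at 18 h than in control (log2 fold change -2.42 ± 0.45 SE, adjusted p = 0.0124, edgeR with Benjamini-Hochberg adjustment). Without control replicate 3 the difference was -1.88 on the log2 scale (edgeR, adjusted p = 0.00374). The call was lost when any 1 of the 3 18h-αGal libraries was left out, with the largest adjusted p at 0.0743 (edgeR), and the direction held in all 17 alternative settings. At 72 h Reg3a was -1.03 ± 0.43 from control (edgeR, adjusted p = 0.826). The difference of 1.40 ± 0.44 between 72 h and 18 h was not called (edgeR, adjusted p = 0.0748), and it was called without control replicate 3 (adjusted p = 0.00926) and with DESeq2.

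Reg3b had a similar shape at a higher level. It was at 2437, 4677 and 8585 normalised counts in controls, at 1177, 1096 and 944 at 18 h, and at 2818, 1779 and 1193 at 72 h. The 18h-αGal libraries lay below all others, and the highest 72h-αGal library overlapped with the lowest control. The fitted difference at 18 h was 4.82-fold lower (-2.27 ± 0.51 on the log2 scale), and it missed the threshold (edgeR, adjusted p = 0.0539). It was -1.73 without control replicate 3 (edgeR, adjusted p = 0.0574). Across the alternatives its adjusted p ran from 0.000319 to 0.179, and DESeq2, a stricter filter on low counts, a fit without robust dispersion and a fit without control replicate 1 called it. At 72 h Reg3b differed from control by -1.42 ± 0.50 (edgeR, adjusted p = 0.826) and from 18 h by 0.85 ± 0.49 (adjusted p = 0.362).

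Reg3g differed less between groups. It was at 2280, 4040 and 8910 normalised counts in controls, at 1985, 2437 and 2773 at 18 h, and at 5463, 3449 and 2727 at 72 h. The groups overlapped in all comparisons. The difference at 18 h was -1.07 ± 0.51 on the log2 scale (edgeR, adjusted p = 0.307), and without control replicate 3 it was -0.40 (adjusted p = 0.590). Across the 9 libraries, log2 CPM of Reg3a and Reg3b had a Pearson correlation of 0.918, Reg3b and Reg3g one of 0.831, and Reg3a and Reg3g one of 0.791. These describe 9 libraries that share the high values of control replicate 3. The 11 enterocyte markers summed to 147680 to 384087 in controls, 204532 to 323861 at 18 h and 94612 to 189229 at 72 h. The 11 Paneth cell markers summed to 18770 to 80706, 38977 to 83115 and 29386 to 70006. Of each list 0 were called at 18 h against control with edgeR (5.96% of all tested genes). The part of these markers in the Reg3 values was not tested.

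Per kilobase of exon, Reg3b had the highest mean level of the members in controls, at 3647 normalised counts (1699 to 5982), followed by Reg3g at 2358 (1059 to 4139), Reg3a at 601 (403 to 994) and Nos2 at 285 (72.0 to 697), which was 79.2 without control replicate 3. The ranges of Reg3b and Reg3g overlapped, as did those of Reg3a and Nos2, whereas Reg3g was above Reg3a in all libraries of the group. At 18 h the order on the same scale began with Reg3g at 1114 (922 to 1288) and Reg3b at 747 (658 to 820), whose ranges did not overlap. Retnlb came next at 181 (131 to 251), above Reg3a at 110 (91.8 to 120), again without overlap. At 72 h Reg3g (1802) and Reg3b (1345) overlapped. Lcn2, Nox1, Duoxa2 and, in controls and at 72 h, Retnlb were at mean levels of at most 77.4 normalised counts per kilobase.

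Other Reg genes were read beside them. Reg3d, between Reg3b and Reg3a in the genome, was at 17.0, 50.3 and 7.13 normalised counts in controls, at 0 in all 3 18h-αGal libraries, and at 25.5, 34.3 and 22.8 at 72 h. This corresponds to 85 raw counts in controls, 0 at 18 h and 87 at 72 h. With a floor of 3 counts over the 18h-αGal group, Reg3d was at least 28.3-fold lower at 18 h than in control (edgeR, adjusted p = 0.0103). Without control replicate 2, which had the highest level, the bound was 13.8-fold, and the call held in the 15 alternatives in which it could be fitted. Reg1, a pancreatic stone protein relative at chr6:78399694-78405828 on the plus strand, was at 9178, 6903 and 10503 normalised counts in controls and at 1557, 1088 and 4437 at 18 h. All 18h-αGal libraries were below the controls, and the difference was not called (edgeR, adjusted p = 0.117). Reg4, on chromosome 3 and known from enteroendocrine and deep crypt secretory cells, was between 3495 and 3763 in controls, between 3327 and 6123 at 18 h and between 1555 and 2005 at 72 h. Reg4 was lower at 72 h than at 18 h (log2 fold change -1.43 ± 0.18, edgeR, adjusted p = 0.000378). All 72h-αGal libraries were also below all controls, by -1.02 ± 0.18, without a call (edgeR, adjusted p = 0.108). DESeq2 called Reg4 lower at 72 h than in control, where it called 0.158% of all genes.

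Nos2 encodes inducible nitric oxide synthase (chr11:78811613-78851080, plus strand, GRCm39). An opposite-strand long noncoding RNA gene, Gm71838, overlaps its exons. Of the 50-base words of Nos2, 1.14% also occur in other annotated genes, most often in Gm71838. Nos2 was at 320, 383 and 3095 normalised counts in controls, at 223, 238 and 62.1 at 18 h, and at 789, 836 and 693 at 72 h. Control replicate 3 was 9.69 times the lowest control, the 18h-αGal libraries were below all controls and all 72h-αGal libraries, and the 72h-αGal libraries lay between the lower controls and the highest one. The difference at 18 h was -2.79 ± 1.03 on the log2 scale (edgeR, unadjusted p = 0.0331, adjusted p = 0.191). Without control replicate 3 it was -0.98 (edgeR, adjusted p = 0.208). Against 18 h, the level at 72 h was higher by 2.12 ± 1.004 (edgeR, adjusted p = 0.264), and this difference was called when control replicate 3 was left out (2.13, adjusted p = 0.00673). The difference between 72 h and control was -0.66 ± 0.95 with all libraries and 1.15 without control replicate 3 (edgeR, adjusted p = 0.966 and 0.984). It was 0.089 with all libraries in limma, so its direction changed with the library and with the tool. The biological coefficient of variation of Nos2 was 0.769, and only 0.154% of the 4556 genes within 2-fold of its mean level had a larger one.

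Genes that feed or limit nitric oxide synthesis moved in both directions at 18 h. Ass1, which encodes the enzyme that recycles citrulline towards arginine, was at 105, 175 and 95.1 normalised counts in controls, at 318, 310 and 272 at 18 h, and at 109, 112 and 121 at 72 h. The 18h-αGal libraries were above all others, and Ass1 rose by 1.26 ± 0.28 on the log2 scale (edgeR, adjusted p = 0.0159). Slc7a2, which encodes a cationic amino acid transporter that carries arginine, was at 309, 345 and 174 in controls and at 110, 143 and 46.9 at 18 h. Slc7a2 fell by 1.45 (SE 0.37, edgeR, adjusted p = 0.0316), and it was higher again at 72 h, by 1.38 ± 0.37 (adjusted p = 0.0280). Gch1, the entry enzyme of the synthesis of the cofactor tetrahydrobiopterin, was between 275 and 497 normalised counts in controls and between 395 and 529 at 18 h (edgeR, adjusted p = 0.737). Pts, a later enzyme of that synthesis, was higher at 72 h than at 18 h, by 0.70 ± 0.21 (edgeR, adjusted p = 0.0453). The call was lost in 8 of 17 alternatives for Pts (largest adjusted p 0.243), in 6 for Slc7a2 at 18 h and in 3 for Ass1, with the direction kept. The neuronal and endothelial synthases Nos1 and Nos3 were at or under 25.2 and 7.64 normalised counts in all libraries.

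Nox1 encodes the catalytic subunit of an epithelial NADPH oxidase (chrX:132987170-133122705, minus strand, GRCm39). It was at 44.6, 76.9 and 124 normalised counts in controls, at 15.8, 10.8 and 0 at 18 h, and at 138, 109 and 156 at 72 h. The 18h-αGal libraries were below all others, and raw counts there were 25, 12 and 0. Nox1 was 8.14-fold lower at 18 h than in control (log2 fold change -3.03 ± 0.67, edgeR, adjusted p = 0.0163) and 13.8-fold higher at 72 h than at 18 h (3.79 ± 0.68, adjusted p = 0.00337). Without control replicate 3 these were -2.63 (edgeR, adjusted p = 0.0251) and 3.80 (adjusted p = 0.00132). The fall at 18 h was not called in 3 alternatives, among them the fit without 18h-αGal replicate 2 and the fit with only these groups. The rise from 18 h to 72 h was called in all 17 alternatives. Leaving out 1 library, the log2 fold changes ran from -3.69 to -2.55 at 18 h and from 3.32 to 4.46 between 72 h and 18 h. At 72 h Nox1 was 0.76 ± 0.59 above control (edgeR, adjusted p = 0.904). Of the 9 measured members, Nox1 was the 1 called in both comparisons with 18 h by edgeR with all libraries. DESeq2, and edgeR without control replicate 3, called Reg3a as well as Nox1 in both.

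An opposite-strand gene, Cstf2, overlaps exons of Nox1. Of the 50-base words of Nox1, 15.4% also occur in other annotated genes, most often in Cstf2. Cstf2 was between 1441 and 2044 normalised counts in all 9 libraries, and its group ranges overlapped. Stem cell markers were lower in the same libraries. The 6 stem cell markers, Lgr5 and Olfm4 among them, all had lower fitted means at 18 h than in control, and their sum was 42510 to 82375 in controls, 11720 to 39656 at 18 h and 54737 to 86239 at 72 h. Of these 6 genes, 0 were called at 18 h against control with edgeR (5.96% of all tested genes), and 2 had an unadjusted p under 0.05. DESeq2 called 2 (Axin2 and Slc12a2), against 8.3% of all genes. The part of the stem cell markers in the result for Nox1 was not tested.

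The partners of Nox1 had smaller differences. Noxa1, its activator subunit, was at 241, 343 and 247 normalised counts in controls, at 177, 233 and 132 at 18 h, and at 379, 384 and 403 at 72 h. The 18h-αGal libraries lay below all others, and the 72h-αGal libraries lay above all others. The rise from 18 h to 72 h, 1.11 ± 0.25 on the log2 scale, was called (edgeR, adjusted p = 0.0110), also in all 17 alternatives. Noxo1, its organiser subunit, was between 64.9 and 135 in all libraries, and Cyba, the membrane partner p22phox, was between 178 and 580, neither of them called. Rac1, the small GTPase of the complex, was lower at 72 h than at 18 h by a small amount (-0.39 ± 0.10, edgeR, adjusted p = 0.0240), a call lost in 6 of 17 alternatives.

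Duox2 and Duoxa2 lie head to head on chromosome 2, at chr2:122109728-122128930 on the minus strand and chr2:122129380-122133366 on the plus strand (GRCm39), with 449 bases between them. Duox2 was at 357, 657 and 1845 normalised counts in controls, at 797, 916 and 407 at 18 h, and at 1962, 1073 and 1077 at 72 h. The 72h-αGal libraries were above all 18h-αGal libraries, and both groups overlapped with control. None of its differences was called, with -0.38 ± 0.65 at 18 h and 0.57 ± 0.65 at 72 h against control (edgeR, adjusted p = 0.809 and 0.957). Without control replicate 3 the difference at 18 h was 0.49, the opposite direction, and that at 72 h was 1.45 (edgeR, adjusted p = 0.610 and 0.955). Duoxa2 was at 75.2, 33.2 and 262 in controls, at 59.9, 94.3 and 30.4 at 18 h, and at 116, 39.3 and 29.4 at 72 h, and the groups overlapped. Its difference at 18 h was -0.93 ± 0.74 (edgeR, adjusted p = 0.535) and was 0.19 without control replicate 3 (adjusted p = 0.913). Duoxa1 overlaps exons of Duoxa2 on the opposite strand. Of the 50-base words of Duoxa2, 41.1% also occur in other annotated genes, most often in Duoxa1. Duoxa1 was at or under 32.3 normalised counts in all libraries. Across libraries, log2 CPM of Duox2 and Duoxa2 had a Pearson correlation of 0.547 (9 libraries). Of the 50-base words of Duox2, 6.05% also occur in other annotated genes, most often in its paralogue Duox1. Duox1 was between 19.3 and 66.2 normalised counts.

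Retnlb, which encodes a goblet cell protein with activity against bacteria and helminths (chr16:48637219-48639255, plus strand, GRCm39), differed in the other direction. It was at 1.17, 34.2 and 0 normalised counts in controls, at 175, 113 and 91.1 at 18 h, and at 2.32, 0 and 9.57 at 72 h. All 18h-αGal libraries were above all others, and raw counts were at most 36 outside that group. Retnlb was 28.6-fold lower at 72 h than at 18 h (log2 fold change -4.84 ± 1.31, edgeR, adjusted p = 0.0447). Leaving out 1 library, the log2 fold change ran from -6.71 (without 72h-αGal replicate 3) to -4.30 (without 72h-αGal replicate 2). This call was lost in 8 of 16 alternatives in which it could be fitted, among them each fit without 1 of the 18h-αGal or 72h-αGal libraries, with a largest adjusted p of 0.162 (edgeR), and the direction held in all of them. At 18 h the difference from control was 3.33 ± 1.20 (edgeR, unadjusted p = 0.0192, adjusted p = 0.141). Without control replicate 2, the only control above 2 raw counts, it was 6.98 and was called (edgeR, adjusted p = 0.00618). The 8 goblet cell markers summed to 208984 to 265559 in controls and to 347189, 137154 and 123920 in 18h-αGal replicates 1 to 3. Of these markers 4 had higher and 4 had lower fitted means at 18 h, and 1, Agr2, was called higher, a call lost without control replicate 3. With all libraries, 5.96% of tested genes were called at 18 h in either direction.

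Lcn2 (chr2:32274645-32278264, minus strand, GRCm39) was low in all groups. It was at 19.4, 0.949 and 92.7 normalised counts in controls, at 32.8, 23.4 and 2.76 at 18 h, and at 19.7, 16.1 and 25.8 at 72 h. The controls spanned 1 to 39 raw counts and enclosed all other libraries. The differences from control were -0.82 ± 1.08 at 18 h and -0.78 ± 1.09 at 72 h (edgeR, adjusted p = 0.739 and 0.964), and they were 0.93 and 0.99 without control replicate 3. At this depth, no direction could be read for Lcn2. Saa2, an acute phase relative of Saa1, was between 2.76 and 49.4 normalised counts, and the groups overlapped.

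**Figure D3:**
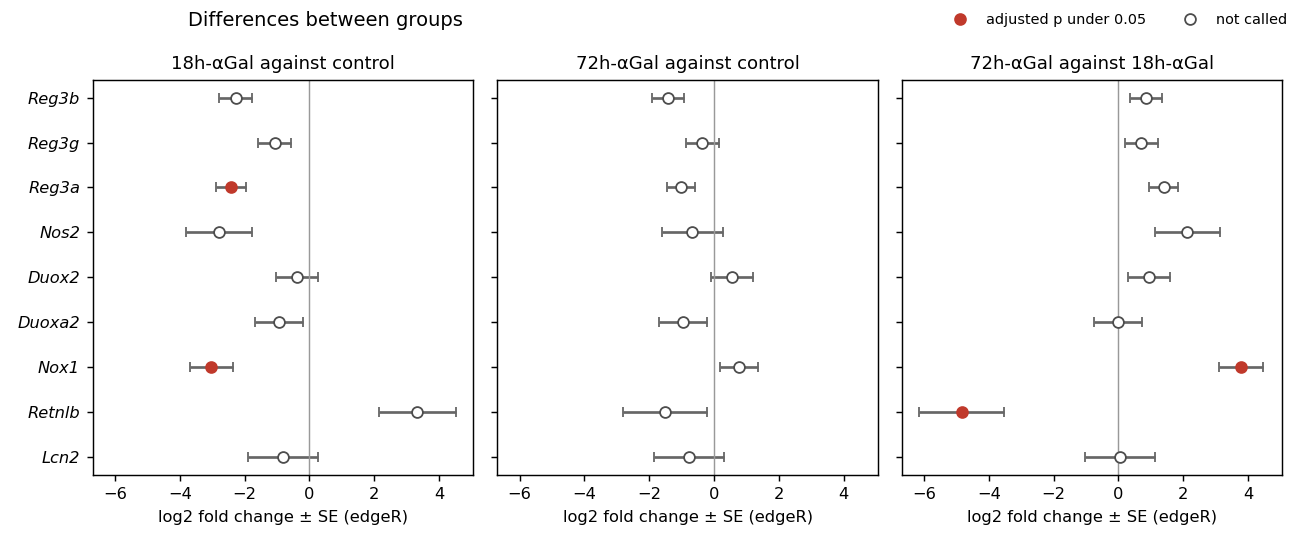
Log2 fold change ± SE of the 9 measured members in the 3 comparisons, fitted with edgeR. Filled red points have an adjusted p under 0.05: Reg3a and Nox1 at 18 h against control, and Nox1 and Retnlb between 72 h and 18 h.

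Spread between libraries was large for this set, in a fit that includes control replicate 3. Its measure, the biological coefficient of variation, is 1 value per gene over all 3 groups. It therefore does not show in which group the spread arose. The biological coefficient of variation was 1.02 for Retnlb, 0.870 for Lcn2, 0.769 for Nos2, 0.607 for Duoxa2, 0.530 for Duox2, 0.448 for Nox1, 0.422 for Reg3g, 0.407 for Reg3b and 0.362 for Reg3a, against a median of 0.283 over all tested genes. Compared with genes within 2-fold of the same mean level, at most 8.95% had a larger value for each member except Nox1, for which 25.8% had. The ratio of highest to lowest library was 2.47 or more for 8 members in controls, where Retnlb was at 0 in 1 library, and between 1.25 and 1.40 for Reg3a, Reg3b and Reg3g at 18 h. The most similar genes to Nos2 across the 9 libraries were Zfp790, Cables1 and Vps13b, with Pearson correlations of log2 CPM of 0.965, 0.951 and 0.936 among 10904 genes. For Duox2 they were Hmgxb3, Rnf146 and Ppp1r13b (0.953, 0.940 and 0.928). For Reg3b H2bc4 and Bin1 were among them (0.945 and 0.930), and for Reg3g Gm48192, Rhpn2 and Akr1b7 (0.950, 0.931 and 0.927). These values were picked as the highest among 10904 genes over only 9 libraries, which include the high values of control replicate 3. Shared regulation was not tested.

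The receptors, transcription factors and feedback regulators upstream of such genes were read from a list of 34, of which 30 were tested. At 18 h, 3 of the 30 were called higher and 4 lower with edgeR, against 5.96% of all tested genes called in either direction. At 72 h against control 0 were called with edgeR (0.0264% of all tested genes) or DESeq2 (0.158%). In edgeR 2 had an unadjusted p under 0.05 at 72 h, against 5.94% of all tested genes. Socs1, a feedback inhibitor of cytokine signalling, was at 187, 144 and 162 normalised counts in controls, at 469, 449 and 571 at 18 h, and at 197, 204 and 151 at 72 h. The 18h-αGal libraries were above all others, and the rise of 1.60 ± 0.22 on the log2 scale was called (edgeR, adjusted p = 0.00106), also in all 17 alternatives. Il13ra1, a chain of the interleukin-13 receptor, rose by 1.05 ± 0.19 (edgeR, adjusted p = 0.00800), and Irf1, an interferon response factor, by 0.76 ± 0.16 (adjusted p = 0.0135). The call was lost in 2 of 17 alternatives for Irf1 and in none for Il13ra1.

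The 4 genes that fell at 18 h were Relb, Nfkb2, Socs3 and Nod2. Relb and Nfkb2, which encode subunits of the alternative NF-κB pathway, fell by 0.99 and 0.77 on the log2 scale (SE 0.17 and 0.15, edgeR, adjusted p = 0.00442 and 0.00909). Socs3, a feedback inhibitor induced through Stat3, was at 480, 896 and 818 normalised counts in controls and at 241, 421 and 379 at 18 h, and fell by 1.07 (SE 0.25, edgeR, adjusted p = 0.0238). Nod2, a sensor of bacterial cell wall fragments, was at 154, 144 and 162 in controls and at 45.4, 55.7 and 74.5 at 18 h, and fell by 1.39 (SE 0.33, edgeR, adjusted p = 0.0222). The call was lost in 5 of 17 alternatives for Nod2, 3 for Socs3, 1 for Nfkb2 and none for Relb. Nfkb1 and Rela, of the canonical NF-κB pathway, differed from control by -0.02 ± 0.13 and -0.14 ± 0.17 and were not called (edgeR, adjusted p = 0.946 and 0.716). Stat3 and Il17rc, a chain of the interleukin-17 receptor, were called lower at 72 h than at 18 h, by -0.52 ± 0.16 and -0.70 ± 0.18 (edgeR, adjusted p = 0.0453 and 0.0266), calls lost in 12 and 6 of 17 alternatives. EdgeR without control replicate 3 also called both at 18 h against control, together with Il4ra. In that fit 6 of 32 genes of the list rose and 4 fell, against 7.66% of all genes called. Il22ra1, the specific chain of the interleukin-22 receptor, was between 1705 and 2238 normalised counts at 18 h and between 1564 and 3673 in controls, without a call.

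Of 13 tested genes among 28 relatives and other secreted defence genes, Reg3d was the 1 called at 18 h with edgeR (5.96% of all tested genes). DESeq2 called 4 of 16 (Reg3d, Reg1, Lbp and Lypd8), against 8.3% of all genes. Of the 13 genes in edgeR, 8 had higher and 5 lower fitted means. The libraries of 18 h and control did not overlap for 7 of the 13, of which 4 were higher and 3 lower. Of all tested genes 23.8% did not overlap (11.5% higher and 12.3% lower). Lbp, which encodes a binding protein for lipopolysaccharide, was at 22.3, 20.9 and 30.9 normalised counts in controls. It was at 7.57, 3.59 and 0 at 18 h and at 42.9, 47.4 and 30.9 at 72 h. Lbp was higher at 72 h than at 18 h by 3.28 ± 0.89 (edgeR, adjusted p = 0.0289). Lypd8, which encodes a protein that keeps flagellated bacteria from the epithelium, was between 43352 and 83537 normalised counts in controls. It was between 85086 and 102662 at 18 h, above all other libraries, and between 32992 and 46655 at 72 h. Lypd8 was lower at 72 h than at 18 h by 1.17 on the log2 scale (SE 0.23, edgeR, adjusted p = 0.00932). Of 23 tested genes among 31 of the NADPH oxidase and nitric oxide machinery, 2 rose (Ass1 and Gpx2, a glutathione peroxidase of the epithelium) and 1 fell (Slc7a2) at 18 h. With edgeR, 5.96% of all tested genes were called at 18 h in either direction. Gpx2 rose by 0.71 ± 0.17 (edgeR, adjusted p = 0.0227). Calls were lost in 6 of 16 alternatives for Lbp, in 2 of 17 for Lypd8 and in 4 of 17 for Gpx2, and without control replicate 3 Lypd8 was also called at 18 h. The median log2 fold changes at 18 h were 0.30 for the secreted defence genes, -0.26 for the oxidase and nitric oxide genes and -0.0037 for the signalling genes, beside -0.03 over all tested genes, and without control replicate 3 they were 0.29, -0.0081 and 0.10, beside -0.04.

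**Figure D4:**
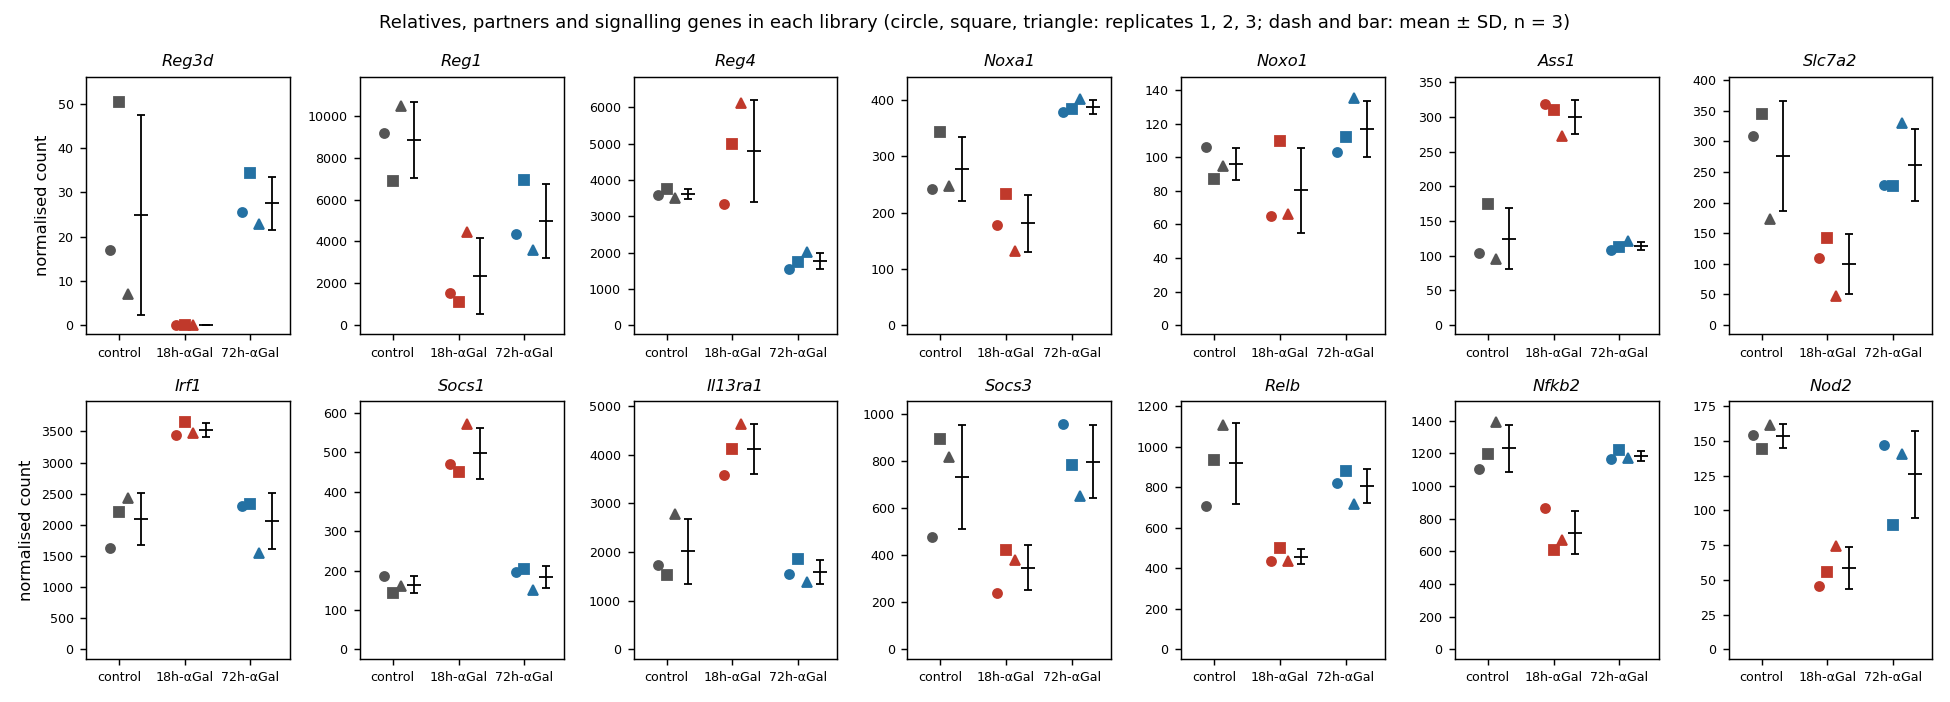
Normalised counts in each library of 14 relatives, partners and signalling genes, drawn as for the members, each panel with its own scale. Reg3d is at 0 in all 3 18h-αGal libraries, and Irf1, Socs1, Il13ra1 and Ass1 are above all other libraries at 18 h.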

How the data were processed

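Total RNA of sorted IECs in 9 samples (3 per group by the labels' titles) was sequenced as 100 bp reads on a NovaSeq instrument from ribodepleted, directional libraries. Per the labels and the submitters' processing notes, the authors aligned reads with HISAT2 and made the raw count per gene with featureCounts (Subread). The notes name the builds GRCm38 and mm10, and the study's methods name GRCm39. The annotation release and the strand setting are not given in the sources used here, so overlapping genes of opposite strand may have exchanged reads. A second table deposited by the authors holds a normalised signal, found to be each raw count over the library's DESeq2 (1.42.0) size factor within a relative difference of 5.88e-15. It carries no correction for gene length, so levels of different genes are compared only per kilobase of merged exon.

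Symbols and positions came from GENCODE vM39 (GRCm39), to which 28480 of 29288 identifiers matched and 808 did not. Upstream sequences came from RefSeq (GRCm38.p6), which matched 8 of the 10 members (all but Nos2 and Retnlb). Raw counts were compared in edgeR 4.0.16 under R 4.3.3 (filterByExpr, TMM, robust quasi-likelihood fit of 3 group means over all 9 libraries), with Benjamini-Hochberg adjustment over 18933 genes and calls at an adjusted p under 0.05. Standard errors were derived from the F statistic. The procedure was tested on simulated data. Alternatives were DESeq2 1.42.0, median-of-ratios size factors, no filter and a stricter filter, only the groups compared, a replicate block, no robust dispersion, limma 3.58.1 (trend) on log2 normalised counts plus 1, and leaving out each library. The floor of 3 counts covers the error of counting alone, because PCR copies of a molecule could not be told from other reads.

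The members were named by role, and every measured member is given. Other genes were named where they were called in at least 1 comparison, or were relatives or partners of a member, out of 3 lists of relatives, enzymes and signalling genes. The most similar genes are the 3 with the highest correlation and a mean of at least 100 normalised counts, given for 4 members. Members, lists and tests were chosen with earlier results of these data known. Saa1 was not analysed here, and 1 gene of the signalling list and 1 of the most similar genes are not reported here.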

Additional observations from a re-analysis of the deposited data

Results flagged for a closer look

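The effect of αGalCer against control differed between 18 h and 72 h for 2 of the 9 members, against 10.2% of all tested genes, and for 10 of the other genes called at 18 h, by the direct edgeR test of 72 h against 18 h (Benjamini-Hochberg adjusted p under 0.05). Both effects share the 3 controls, which cancel in this test, the 10 were picked by a call that uses the same 18h-αGal libraries, which favours an opposite sign, and the 72 h group has no controls of its own time. The log2 difference was 3.79 for Nox1 and -4.84 for Retnlb. Among the relatives, it was 7.92 for Reg3d, a fitted value that depends on the prior count since all 18h-αGal libraries were at 0. It was -1.39 for Ass1 and 1.38 for Slc7a2. Gpx2 was the only gene of the 3 lists called at 18 h and not in this test (-0.35, edgeR, adjusted p = 0.221). Among the signalling genes, it was -1.43 for Socs1, -1.36 for Il13ra1 and -0.77 for Irf1, and 1.21 for Socs3, 1.12 for Nod2, 0.82 for Relb and 0.74 for Nfkb2. Groups of 3 libraries were too small for a test of single outlying libraries.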

How the results depend on the processing

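Of 27 member fold changes, 17 kept their direction in every alternative, and 10 reversed in at least 1 of up to 17. None of the 19 called fold changes of other genes reversed, and 13 lost their call in at least 1. Against 2 members called at 18 h, only the groups compared and the replicate block each gave 1 (Reg3a), no robust dispersion gave 4, and leaving out a library gave 0 to 3 (0 without 18h-αGal replicate 2). Between 72 h and 18 h, against 2, no filter, a stricter filter and the replicate block gave 1 (Nox1), only the groups compared gave 4, and leaving out a library gave 1 to 4 (4 without control replicate 3). Of all genes, 1128 were called at 18 h, against 1720 with DESeq2, 593 with only the groups compared and 432 to 1556 without a library. At 72 h against control 5 were called, against 31 with DESeq2, 13 without a filter, 3 with a stricter filter, 1 with the replicate block, 3 without robust dispersion and 0 to 20 without a library. Between 72 h and 18 h 1936 were called, and 831 to 2593 without a library. Limma turned the 72 h difference from control to 0.089 for Nos2 and 0.45 for Lcn2. From 18 h to 72 h, the replicate block gave -0.23 for Lcn2 and a stricter filter gave 0.0028 for Duoxa2. Leaving out a library, the log2 difference at 18 h ran from -1.41 to 0.93 for Lcn2, from -0.79 to 0.49 for Duox2 and from -1.39 to 0.19 for Duoxa2. That at 72 h ran from -1.13 to 1.15 for Nos2, -0.71 to 0.31 for Reg3g, -1.37 to 0.99 for Lcn2, -1.78 to 0.17 for Duoxa2 and -3.38 to 2.14 for Retnlb. That between 72 h and 18 h ran from -0.44 to 0.62 for Lcn2 and -0.84 to 0.41 for Duoxa2. Each upper end against control came without control replicate 3, except that of Retnlb, without control replicate 2. The cause was not tested. Samples with the same replicate number had correlated deviations of between -0.15 and 0.11, and the labels give no pairing, so the replicate numbers were not taken to pair the samples. Depth limits Lcn2, Retnlb and Nox1 most, whose lowest libraries held 1, 0 and 0 raw counts.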
